A study of Mus musculus with 2 samples.

Results

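The microRNAs of livers from pair-fed mice, the control arm of a short-term ethanol feeding experiment, were described in 2 small RNA libraries and the libraries were compared with each other. They are the 2 pair-fed columns among the 4 library columns of 2 tables, and the 2 ethanol-fed columns were left out. The controls were wild-type female C57BL/6 mice, 8 to 10 weeks old at the start. They were accustomed to the liquid Lieber-DeCarli control diet for 5 days and then pair-fed an ethanol-free diet of equal calories while the ethanol arm drank ethanol for 10 days. On day 16 they received dextrin-maltose by gavage in place of ethanol, and the livers were taken 9 h later. The labels hold 1 control sample, and both pair-fed columns were assigned to it, although the tables are numbered as experiments 1 and 2 and the study speaks of independent experiments for its small RNA profiles. With 1 library in each table, and tables of unlike units, no test was made. How many animals stood behind each library, and whether RNA was pooled, is not given in the sources used here, so differences in animals, preparation, run and counting cannot be told apart.

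A microRNA is cut from a hairpin precursor whose strands are called the 5p and the 3p arm, and usually 1 of them is kept by an Argonaute protein while the other is degraded. Bases 2 to 8 of the mature strand, the seed, pair with target messenger RNAs, so microRNAs that share a seed form a family with overlapping targets. In the liver, miR-122 is the classical hepatocyte microRNA, with roles in lipid metabolism. The miR-192/194 genes are expressed in epithelium of liver, gut and kidney.

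The first library (library 1) held 4170601 reads on microRNAs, deposited as counts, and 395 of its 484 listed names were above 0. Its values were scaled here to RPM, its reads per 1000000 microRNA reads, and a count of 0 allows up to 0.719 RPM (3 reads). The second library (library 2) was deposited as RPM and sums to 999899. It lists 1915 names, of which 438 were above 0, and its lowest value above 0 is 0.92 RPM. All 484 names of library 1 are listed in library 2, whereas 1431 names of library 2 are absent from the first table. Of the latter, 82 were above 0 and together made 0.612% of library 2. The 2 tables were normalized separately, so every level set across them is relative to each library's own microRNA total, and fewer cells of a type and less RNA per cell cannot be told apart in whole tissue.

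Mature sequences were taken from RefSeq (GRCm38.p6), which matched 1623 of the 1915 names (84.8%). The matched names held 85.8% of library 1 and 77.5% of library 2. The sequences below, with the seed in capitals, belong to microRNAs that led a library or stood far apart between the libraries.
miR-192-5p: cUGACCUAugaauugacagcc
miR-148a-3p: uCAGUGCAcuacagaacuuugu
let-7f-5p: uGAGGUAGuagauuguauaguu
miR-10a-5p: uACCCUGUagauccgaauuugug
miR-21a-5p: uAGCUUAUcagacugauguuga
miR-22-3p: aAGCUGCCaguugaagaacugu
miR-26a-5p: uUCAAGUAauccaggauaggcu
miR-194-5p: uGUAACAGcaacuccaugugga
miR-126a-3p: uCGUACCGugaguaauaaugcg
miR-30c-5p: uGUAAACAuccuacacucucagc
miR-182-5p: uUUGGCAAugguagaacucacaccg

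Both libraries were dominated by few microRNAs, but not by the same ones. The 10 most abundant names held 85.5% of library 1 and 75.2% of library 2, and the 20 most abundant held 94.1% and 88.1%. Only 4 names stood in the top 10 of both (40%): miR-192-5p, miR-148a-3p, let-7f-5p and miR-21a-5p. The overlap was 11 of the top 20 (55%) and 34 of the top 50 (68%). Levels of at least 1000 RPM were reached by 36 microRNAs in library 1 and by 51 in library 2.

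miR-192-5p, from Mir192 at chr19:6264857-6264877 on the plus strand (GRCm38.p6, with no annotated host gene on that strand), led library 1. It had 1618863 reads there, or 38.8% of the library (95% Wilson interval 38.8% to 38.9%, for counting error only), which is 388161 RPM. In library 2 it ranked behind miR-148a-3p and miR-122-5p with 117318 RPM (11.7%), so its share was 3.31-fold larger in library 1. miR-148a-3p, a tumour suppressor microRNA abundant in hepatocytes, led library 2 with 185558 RPM (18.6%) against 70319 RPM (7.03%) in library 1. Its gene Mir148a lies at chr6:51269829-51269850 on the minus strand. The order of these leaders was thus exchanged between the libraries. miR-148a-3p was 2.64-fold higher in library 2, a direction that reverses once the general shift between the libraries, described below, is taken off (a log2 ratio of -0.33 after median-of-ratios scaling).

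On the RPM scale, miR-122-5p was, after miR-126a-3p below, the leader that differed most. Library 2 held 182938 RPM of it (18.3%, second place), whereas library 1 held 12392 reads, or 2971 RPM (0.297%, Wilson interval 0.292% to 0.302%, place 25). The hepatocyte microRNA was therefore 61.6-fold higher in library 2 on that scale. After median-of-ratios scaling its log2 ratio was 4.21. Those of miR-486b-5p (-5.83), miR-10a-5p (-5.51), miR-126a-3p (4.43) and miR-143-3p (-4.35) were then larger in size. The other arm of miR-122, miR-122-3p, also stood higher in library 2, at 299.6 against 37.9 RPM. The remaining hepatocyte markers did not follow: miR-802-5p, a microRNA of hepatocyte glucose and lipid metabolism, was at 121 RPM in library 1 and 111 RPM in library 2, and miR-802-3p was at 91.8 and 21.7 RPM.

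Among the other leaders of library 1, let-7f-5p was at 105065 RPM against 60425 in library 2. The mesenchymal miR-143-3p was at 96276 RPM against 15722. miR-10a-5p, encoded within the Hoxb gene cluster, was at 95953 RPM against 6979. All 3 took a larger share of library 1, with log2 ratios of library 2 over library 1 of -0.80, -2.61 and -3.78 on the scale of RPM plus a pseudocount of 1. miR-22-3p stood at 26328 RPM in library 1 and 5513 in library 2, and the red cell microRNA miR-486b-5p at 14092 and 818 RPM. In contrast, miR-30a-5p (27752 and 20983 RPM) and let-7a-5p (16418 and 16464 RPM) were within 2-fold of each other in the libraries on the RPM scale. After median-of-ratios scaling their log2 ratios were -2.13 and -1.73, so that miR-30a-5p was then past 4-fold towards library 1.

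Of the 10 leaders of library 2, 6 further ones took a smaller share of library 1. miR-21a-5p, induced by liver injury and encoded at the end of Vmp1 (chr11:86584120-86584141, in an exon), was at 57661 RPM in library 2 and 14828 in library 1. miR-26a-5p, produced from introns of Ctdspl and Ctdsp2, was at 48312 and 5542 RPM, and let-7g-5p, from an intron of Wdr82, at 32887 and 2161 RPM. For miR-194-5p the values were 23768 and 1149 RPM, and for miR-101b-3p, from an intron of Rcl1, 21710 and 4492 RPM. The endothelial miR-126a-3p, from Egfl7 (chr2:26591402-26591423), was at 21096 RPM in library 2 and at only 294 RPM in library 1. Each of these 6 was higher in library 2, and each remained so relative to the median microRNA.

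**Figure D1:**
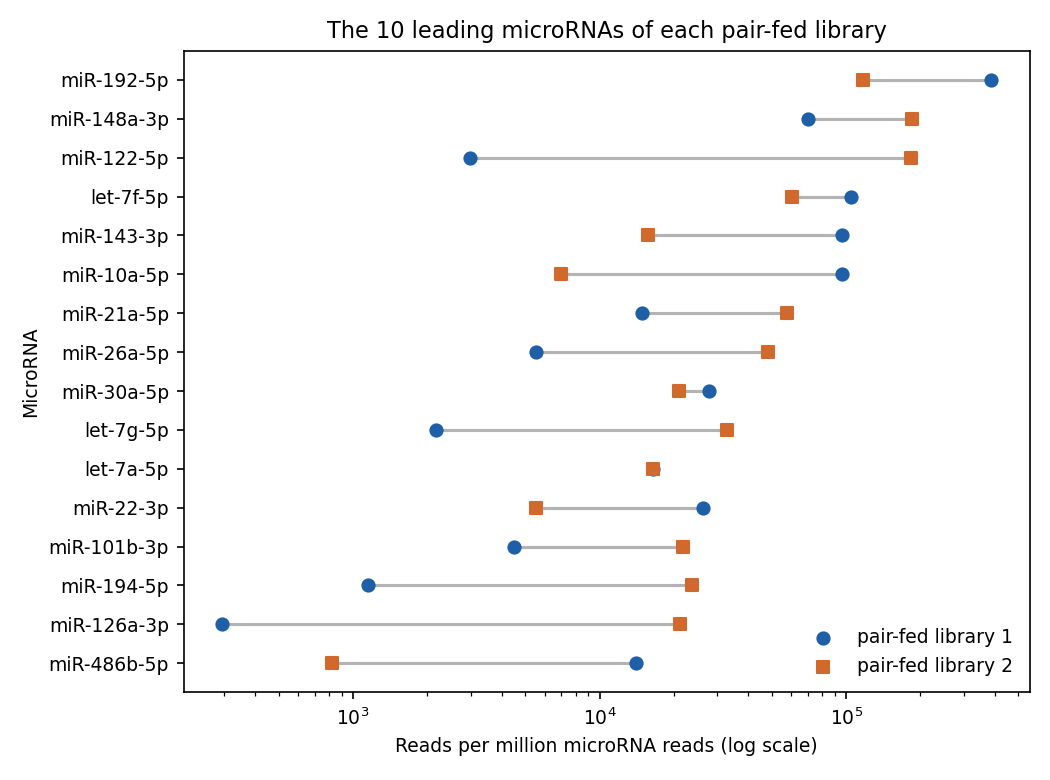
Level of each microRNA that was among the 10 most abundant of either pair-fed library, in RPM on a log scale, with library 1 as circles and library 2 as squares (1 library each, no error bars). The widest gaps on this scale are those of miR-126a-3p (294 and 21096 RPM) and miR-122-5p (2971 and 182938 RPM), whereas let-7a-5p sits at the same RPM in both. After median-of-ratios scaling let-7a-5p has a log2 ratio of -1.73.

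The libraries were then compared over the 220 microRNAs that both tables list with a mean of at least 10 RPM, which held 99.95% of library 1 and 99.3% of library 2. The log2 ratio of library 2 over library 1 had a median of 1.72, or 3.29-fold, with quartiles of -0.34 and 3.60. The typical microRNA thus took a larger share of library 2. Folds and ratios below keep this general shift, unless median-of-ratios scaling or its removal is stated. Only 54 of the 220 (24.5%) were within 2-fold of each other. A difference of at least 4-fold was seen for 58.2% of the compared microRNAs, with 101 higher in library 2 (45.9%) and 27 higher in library 1 (12.3%). Median-of-ratios scaling, which sets the typical microRNA equal, shifted the ratios by 1.73 and left 48.6% past 4-fold, with 51 higher in library 2 (23.2%) and 56 higher in library 1 (25.5%). The share of calls that were higher in library 2 was 78.9% before and 47.7% after that scaling.

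The spread was not confined to scarce microRNAs. The share past 4-fold was 57.7% of the 104 microRNAs at 10 to 100 RPM, 58.1% of 62 at 100 to 1000 RPM, 62.2% of 37 at 1000 to 10000 RPM, and 52.9% of 17 above. Across the 220 microRNAs, Spearman's rho between the libraries was 0.60 and Pearson's r of log2 values was 0.66. These are descriptions across microRNAs of 1 library pair, which share depth and normalization and are not replicates.

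**Figure D2:**
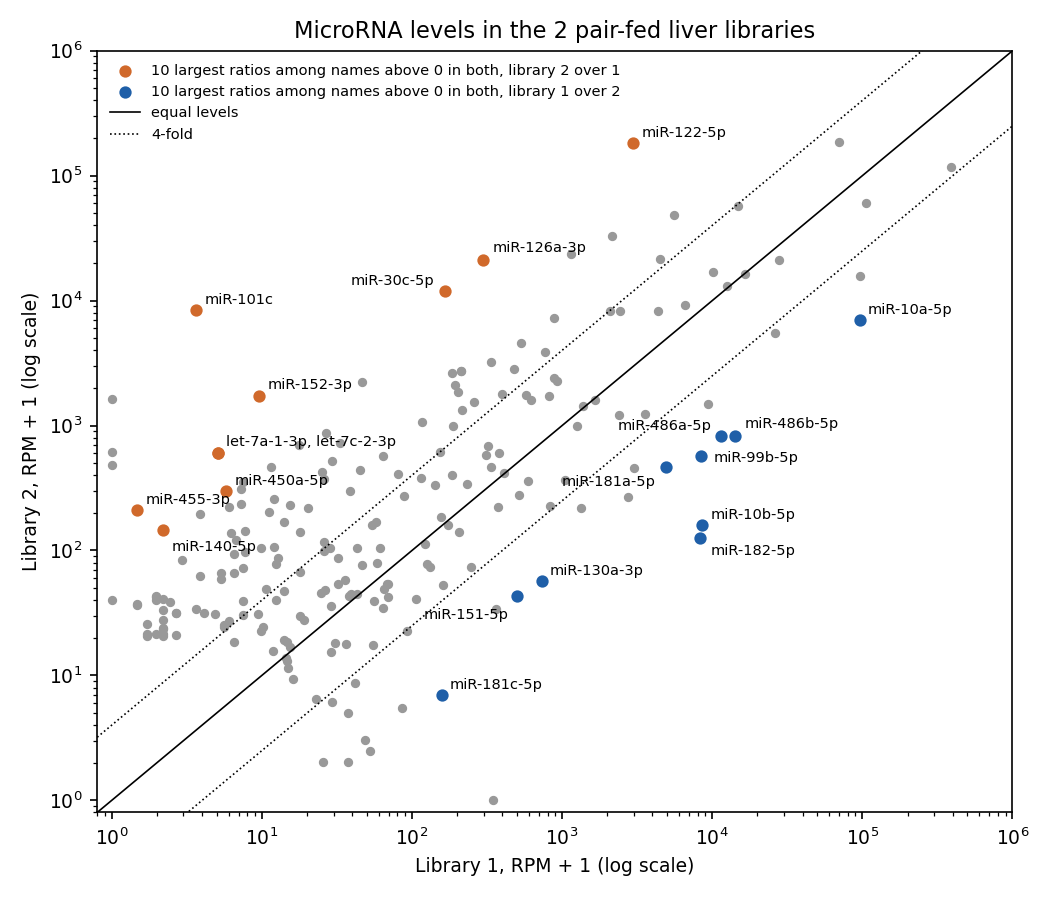
Levels of the 220 compared microRNAs in library 1 (horizontal) and library 2 (vertical), in RPM plus 1 on log scales, with lines of equal level and of 4-fold difference. Coloured points are the 10 largest ratios in each direction among microRNAs above 0 in both libraries with at least 100 RPM in 1 of them, and more points lie above the upper dotted line (101) than under the lower one (27), a balance that turns to 51 and 56 after median-of-ratios scaling.

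The largest ratio towards library 2 was that of miR-101c, with 11 reads (2.64 RPM) in library 1 and 8417 RPM in library 2, or 3191-fold. Its 19-base RefSeq sequence lies wholly within that of miR-101a-3p, so a read can belong to either name.
miR-101a-3p: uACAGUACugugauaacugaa
miR-101c: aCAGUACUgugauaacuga
miR-101a-3p itself had 8676 reads (2080 RPM) in library 1 and 8281 RPM in library 2. Library 2 therefore listed the contained and the containing name at nearly the same level, whereas library 1 listed nearly all such reads under miR-101a-3p, and the miR-101c ratio depends on how reads were assigned. The same holds for miR-374c-5p, contained in miR-374b-5p: library 2 listed them at 460.8 and 461 RPM, and the first table lists only miR-374b-5p, with 44 reads. let-7a-1-3p and let-7c-2-3p have identical sequences and carried identical values, 17 reads each in library 1 and 604.8 RPM each in library 2 (148-fold), so they are 1 measurement.

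Among the other large ratios towards library 2, the names with a matched sequence were neither identical to nor contained in another name. miR-152-3p, from an intron of Copz2 (chr11:96850439-96850459), had 36 reads (8.63 RPM) in library 1 and 1733 RPM in library 2, or 201-fold. miR-30c-5p had 684 reads (164 RPM) and 11933 RPM (72.8-fold), and miR-126a-3p was 71.8-fold higher in library 2. miR-140-5p, best known from cartilage, had 5 reads and 143.9 RPM (120-fold). miR-450a-5p had 20 reads and 297 RPM (62.0-fold). For miR-455-3p the 2 reads of library 1 against 208 RPM gave a ratio of 434 with a 95% counting interval of 120 to 3581.

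On the RPM scale, the largest ratios towards library 1 did not exceed 66.1-fold among microRNAs above 0 in both libraries. miR-182-5p, a microRNA of sensory organs and some epithelia encoded at chr6:30165962-30165986, reached that ratio, with 34472 reads (8265 RPM) in library 1 and 125 RPM in library 2. The Hox-linked miR-10b-5p, from introns of Hoxd3 and Hoxd4 (chr2:74726074-74726096), was at 8548 and 159 RPM (53.8-fold), and miR-10a-5p was 13.7-fold higher in library 1. Both libraries held miR-181a-5p and miR-181c-5p, which act in lymphocyte development, at 4949 and 464 RPM (10.7-fold) and at 157 and 5.92 RPM (26.5-fold). miR-99b-5p was at 8424 and 569 RPM (14.8-fold). miR-130a-3p was at 729 and 55.6 RPM (13.1-fold), and miR-151-5p at 499.7 and 42.4 RPM (11.8-fold). miR-486a-5p (14.1-fold) and miR-486b-5p (17.2-fold) complete the 10 largest ratios in this direction. This pair carried the same value in library 2 (818 RPM each), so its 2 ratios are not separate measurements there. The sizes in the 2 directions depend on the general shift. After median-of-ratios scaling the log2 ratios were -7.74 for miR-182-5p and -7.45 for miR-10b-5p. Towards library 2 they were 9.45 for miR-101c, 5.76 for miR-152-3p and 5.43 for miR-455-3p.

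Many microRNAs were seen in 1 library only, and only the most abundant of these are named here. Of the names above 0 in library 2, 82 are absent from the first table. miR-7a-5p, known from neurons and endocrine cells, stood at 5110 RPM in library 2 and is not listed in the first table, so no ratio can be given. Listed at 0 in library 1 were miR-378d (1622 RPM in library 2, at least 2255-fold higher), let-7j (610 RPM, at least 849-fold) and miR-185-5p (486 RPM, at least 675-fold), each bound being set against 3 reads. The sequence of let-7j is close to that of let-7i-5p (4325 and 8331 RPM), and that of miR-378d to miR-378c (192.5 and 2094 RPM). Whether reads of such near names were assigned alike in both libraries was not tested. In the other direction, miR-181a-2-3p had 1431 reads (343 RPM) in library 1 and is listed at 0 in library 2, at least 373-fold lower than in library 1 when set against the lowest listed value. The next 4 of that kind, miR-101b-5p, miR-1943-5p, miR-6240 and miR-410-3p, had 80, 75, 37 and 21 reads.

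Summed over shared seeds, the 12 leading families held 79.8% of library 1 and 68.8% of library 2, and names without a matched sequence, miR-122-5p and miR-143-3p among them, are not in these sums. The let-7 family, which restrains growth and is found in most differentiated cells, took nearly the same share of both libraries, 14.1% and 13.97%, which places it below the median microRNA in library 2, and its members differed. The miR-192/215 family made 38.8% and 11.7%, and the miR-10 family 10.5% and 0.714% (14.6-fold higher in library 1). miR-22-3p, alone on its seed, made 2.63% and 0.551%. In the other direction, the miR-26 family made 0.608% and 5.29% (8.70-fold higher in library 2), the seed of miR-194-5p 0.115% and 2.38%, that of miR-101b-3p 0.449% and 2.17%, and that of miR-126a-3p 0.0294% and 2.11%. The miR-21 seed made 1.48% and 5.77%. The miR-148/152 family (7.04% and 18.95%), the miR-30 family members with a sequence (2.87% and 3.68%) and the miR-27 family (1.27% and 1.499%) were higher in library 2 on the RPM scale but lower once the general shift was taken off.

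Members of a family often differed between the libraries by more than the family did. Of the 26 seeds with at least 2 compared members (74 microRNAs), 16 had members whose log2 ratios lay 4-fold or more apart, and the median range within a seed was 2.56. The sequences of 4 families are given with the bases that differ among the listed members in capitals. The miR-10 members, with a range of 1.96, lay just under 4-fold apart and are not among the 16.
miR-148a-3p: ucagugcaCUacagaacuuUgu
miR-148b-3p: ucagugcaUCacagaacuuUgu
miR-152-3p: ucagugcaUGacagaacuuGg
miR-30a-5p: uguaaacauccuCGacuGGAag
miR-30e-5p: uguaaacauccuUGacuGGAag
miR-30c-5p: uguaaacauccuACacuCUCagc
miR-10a-5p: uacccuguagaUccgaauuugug
miR-10b-5p: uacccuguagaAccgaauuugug
miR-27b-3p: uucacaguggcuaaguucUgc
miR-27a-3p: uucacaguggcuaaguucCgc

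miR-148b-3p had 45.6 RPM in library 1 and 2221 RPM in library 2 and miR-152-3p 8.63 and 1733 RPM, against 70319 and 185558 RPM for miR-148a-3p. Counting positions from 1 at the 5′ end and naming the base of miR-148a-3p first, miR-148b-3p carries C9U and U10C and miR-152-3p C9U, U10G and U20G. The log2 ratios were 1.40, 5.58 and 7.49 for miR-148a-3p, miR-148b-3p and miR-152-3p. Both lesser members were scarce in library 1, where the leading member was among the 10 most abundant.

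The miR-30 family, known for roles in epithelial differentiation, showed a like spread. miR-30a-5p had a log2 ratio of -0.40, miR-30e-5p, which differs from it by C13U, a ratio of 2.34 (763 and 3881 RPM), and miR-30c-5p a ratio of 6.18. miR-27b-3p and miR-27a-3p, which differ by U19C, stood at 12456 and 13122 RPM and at 200.5 and 1867 RPM, with log2 ratios of 0.08 and 3.21. miR-10a-5p and miR-10b-5p, separated by U12A, were both higher in library 1, with ratios of -3.78 and -5.74. miR-26a-5p and miR-26b-5p moved together, with ratios of 3.12 and 3.10.

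Within the let-7 family, let-7g-5p stood out with a log2 ratio of 3.93 (2161 and 32887 RPM). The other members with at least 10 RPM lay between -1.87 for let-7e-5p (829 and 226 RPM) and 1.60 for let-7d-5p (574 and 1745 RPM). let-7f-5p had -0.80, let-7a-5p 0.00, let-7c-5p 0.75, let-7i-5p 0.95 and let-7b-5p 1.44. Relative to let-7f-5p, let-7a-5p carries A12G, let-7g-5p A12U and U18C, and let-7e-5p U9G and A12G. On the RPM scale only let-7g-5p of the 9 compared members was past 4-fold, against 58.2% of all compared microRNAs, but after median-of-ratios scaling 4 of the 9 were, against 48.6%.
let-7f-5p: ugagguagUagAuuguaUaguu
let-7a-5p: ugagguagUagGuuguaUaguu
let-7g-5p: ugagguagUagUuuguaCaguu
let-7e-5p: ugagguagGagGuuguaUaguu

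One seed, shared by miR-99b-5p, miR-99a-5p and miR-100-5p and singled out after its values were seen, had members past 4-fold in both directions on the RPM scale. After median-of-ratios scaling only 1 of the 3 was past 4-fold, miR-99b-5p with a log2 ratio of -5.61. miR-99b-5p was at 8424 RPM in library 1 and 569 RPM in library 2, whereas miR-99a-5p was at 882 and 7219 RPM. The related miR-100-5p was at 1665 and 1614 RPM. Relative to miR-99b-5p, miR-99a-5p carries C1A, A11U, C16U and C21U. The summed level of the family, 1.10% of library 1 and 0.940% of library 2, hid these opposite differences.

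**Figure D3:**
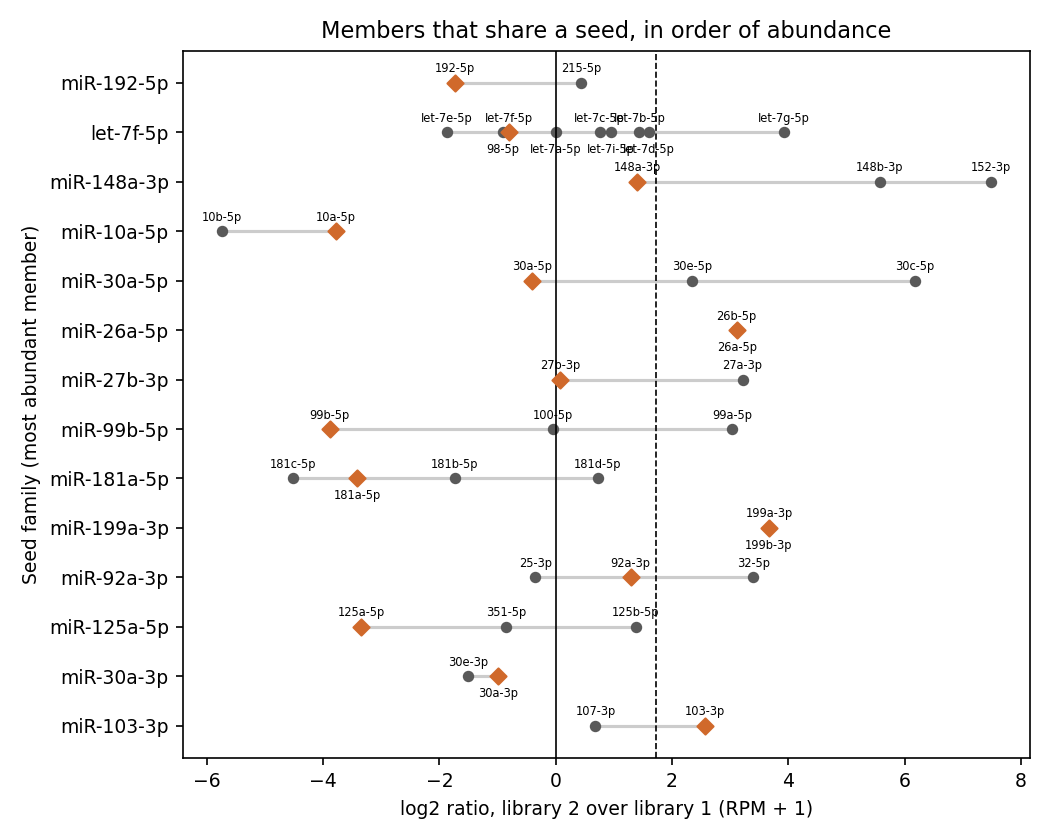
Log2 ratio of library 2 over library 1 for the compared members of 14 seed families, each on its own line and ordered by abundance, with the most abundant member as a diamond, the solid line at 0 and the dashed line at the median of all compared microRNAs (1.72). The miR-26 members coincide, whereas the miR-148/152 members run from 1.40 to 7.49 and the miR-99/100 members from -3.89 to 3.03.

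The kept arm of the hairpin could be compared for 80 hairpin names with both arms listed and at least 10 RPM in each library. The same arm led in both libraries for 72 of them (90%), 39 with the 5p arm and 33 with the 3p arm. The lesser arm was usually scarce, with a median of 1.92% of the reads of both arms in library 1 and 2.34% in library 2. Among abundant hairpins, the arm shares of miR-122, miR-21a and miR-148a barely moved, whereas those of miR-126a, below, were exchanged. The 5p arm made 98.7% and 99.8% of miR-122, 99.8% and 99.97% of miR-21a, and 0.575% and 0.225% of miR-148a.

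The leading arm was exchanged for 8 hairpins. For miR-126a, the 5p arm had 14849 reads and the 3p arm 1226 in library 1, so that 5p made 92.4% (Wilson interval 92.0% to 92.8%). In library 2 the 5p arm was at 1239 RPM and the 3p arm at 21096 RPM, and 5p made 5.55%. The log2 ratio of library 2 over library 1 was -1.52 for miR-126a-5p and 6.16 for miR-126a-3p. The 5p share of miR-1948, a microRNA described in mouse, went from 5.21% (2.94% to 9.09%) in library 1 to 94.2% in library 2, with 11 and 200 reads on the 5p and 3p arms of library 1. It was 96.8% (92.8% to 98.6%) and 18.5% for miR-664, and 85.9% (80.2% to 90.2%) and 12.3% for miR-361. For miR-145a, a partner of miR-143 in smooth muscle, it was 15.6% (13.2% to 18.4%) and 74.0%.

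The other 3 of these hairpins, named after their values were seen, were miR-423 (92.1% and 36.6% for the 5p arm), miR-221 (60.7% and 8.56%) and miR-30e (42.2% and 91.3%). With at least 100 RPM in each library, 45 of 50 hairpins kept their leading arm. Arm shares are formed within a library and do not depend on how the libraries were scaled to each other.

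**Figure D4:**
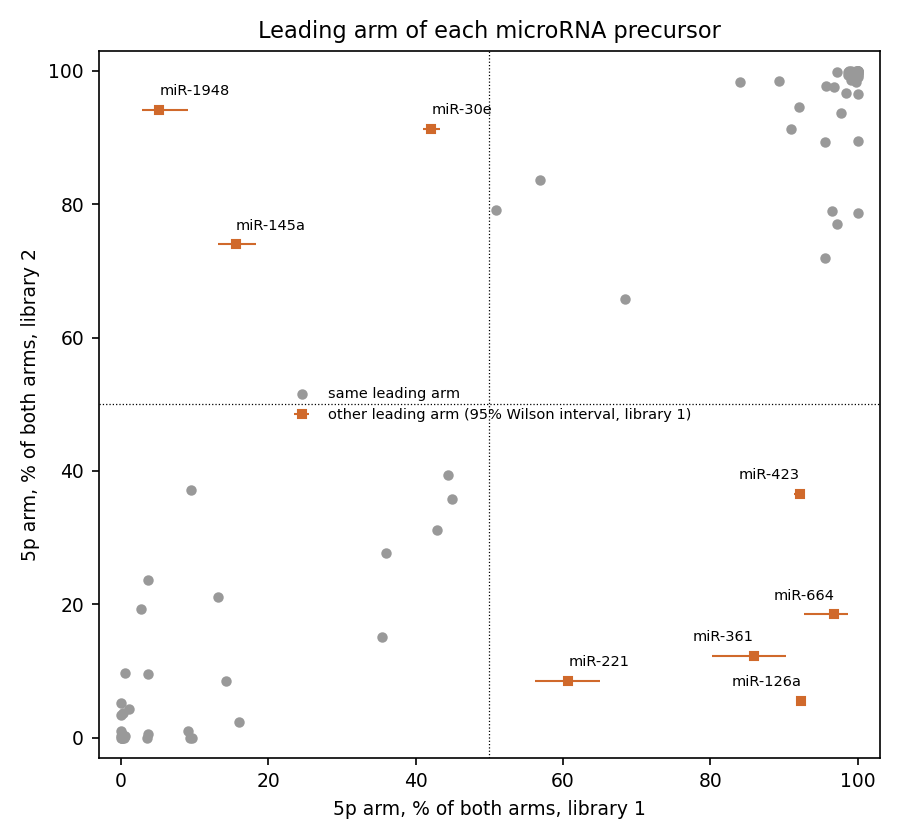
Share of the 5p arm in the reads of both arms for 80 hairpin names, in percent, in library 1 (horizontal) and library 2 (vertical), with dotted lines at equal arms and bars for the 95% Wilson interval of counting error in library 1. Most points lie in the lower left or upper right corner, and the 8 squares in the other 2 corners are the hairpins whose leading arm was exchanged, miR-126a (92.4% and 5.55%) and miR-1948 (5.21% and 94.2%) among them.

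Lists of microRNAs known from particular cell types were read in both libraries to check the labelled tissue and the cells it may hold. Both libraries held the microRNAs of liver, but in unlike shares. The miR-192/194/215 list made 38.9% of library 1 and 14.1% of library 2, while the hepatocyte list of miR-122 and miR-802, which defines the labelled tissue, made only 0.322% of library 1 against 18.3% of library 2. Within the epithelial list miR-192-5p was higher in library 1, but miR-194-5p (4.37), made from the same gene cluster, and miR-194-2-3p (24.9 and 116 RPM) were higher in library 2. miR-215-5p was at 57.8 and 78.5 RPM.

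The mesenchyme list, which marks stellate cells, fibroblasts and smooth muscle, made 9.69% of library 1 and 2.27% of library 2. miR-143-3p was nearly all of it in library 1 (96276 of 96919 RPM) and the larger part in library 2 (15722 of 22651 RPM). Of its 8 compared members, 6 were at least 4-fold higher in library 2, against 45.9% of all compared microRNAs, and only miR-143-3p was as much higher in library 1, whereas after median-of-ratios scaling these were 4 and 1. miR-199a-3p and miR-199b-3p, identical in sequence, were each at 212 and 2708 RPM, miR-199a-5p at 32.1 and 722 RPM, and miR-145a-5p at 28.5 and 523 RPM. miR-145a-3p was at 154 and 184 RPM. miR-143-5p (0.480 and 35.7 RPM) and miR-214-3p (0.719 and 24.6 RPM) rested on 2 and 3 reads in library 1. The identical pair counts as 2 of these members. The sum of the list was lower in library 2 and became higher there once miR-143-3p was left out (642 and 6929 RPM).

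The endothelial list, in which only both arms of miR-126a were above 0, made 0.385% and 2.23%, with miR-126a-3p higher in library 2 and miR-126a-5p (3560 and 1239 RPM) higher in library 1. Red cell microRNAs were split likewise. miR-486a-5p was at 11512 RPM in library 1 and 818 in library 2, with equal values for both miR-486 copies in library 2 but 48013 and 58771 reads in library 1. miR-451a, the most abundant microRNA of red cells and matured by Argonaute 2 without Dicer, went the other way, from 25.7 RPM in library 1 to 873 RPM in library 2. Its cluster partners miR-144-3p (11.7 and 86.7 RPM) and miR-144-5p (9.59 and 48.5 RPM) were also higher in library 2.

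Leukocyte microRNAs were scarce in both libraries, 0.0417% of library 1 and 0.0898% of library 2. miR-142a-5p was at 308 and 583 RPM and miR-142a-3p, a pan-leukocyte strand, at 14.4 and 228 RPM. The myeloid miR-223-3p was at 18.2 and 26.7 RPM, miR-223-5p at 13.7 and 12.1 RPM, the lymphocyte miR-150-5p at 62.8 and 33.9 RPM, and miR-155-5p at 0 reads and 13.7 RPM. Of the 5 compared members, 1 was past 4-fold, against 58.2% of all compared microRNAs. After median-of-ratios scaling 1 was past 4-fold towards library 2 and 1 towards library 1, against 48.6% of all. The larger share of the list in library 2 reverses once the general shift is taken off.

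The miR-200 family and its relatives, which mark bile duct and other simple epithelium, made 62.1 RPM in library 1 and 525 RPM in library 2. miR-200a-3p was at 11.0 and 257 RPM, miR-200b-3p at 19.4 and 219 RPM, miR-429-3p at 8.87 and 21.6 RPM, and miR-200c-3p at 0 reads and 15.3 RPM. miR-141-3p, which shares its seed with miR-200a-3p, was at 22.1 and 5.46 RPM. The pancreatic islet microRNA miR-375-3p was at 85.1 RPM in library 1 and 4.53 in library 2, and the acinar miR-216 and miR-217 were at 0 or not listed, apart from miR-217-5p at 1.39 RPM in library 2. The muscle microRNA miR-1a-3p was at 69.9 RPM in library 2 and is not listed in the first table. Of the neuronal list, miR-124-3p was at 0 in library 2 and not listed in the first table, miR-9-5p was at 1.44 and 2.96 RPM, and miR-128-3p, also found outside neurons, was at 6.23 and 236 RPM. The part of any of these cell types in the differences between the libraries was not tested.

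**Figure D5:**
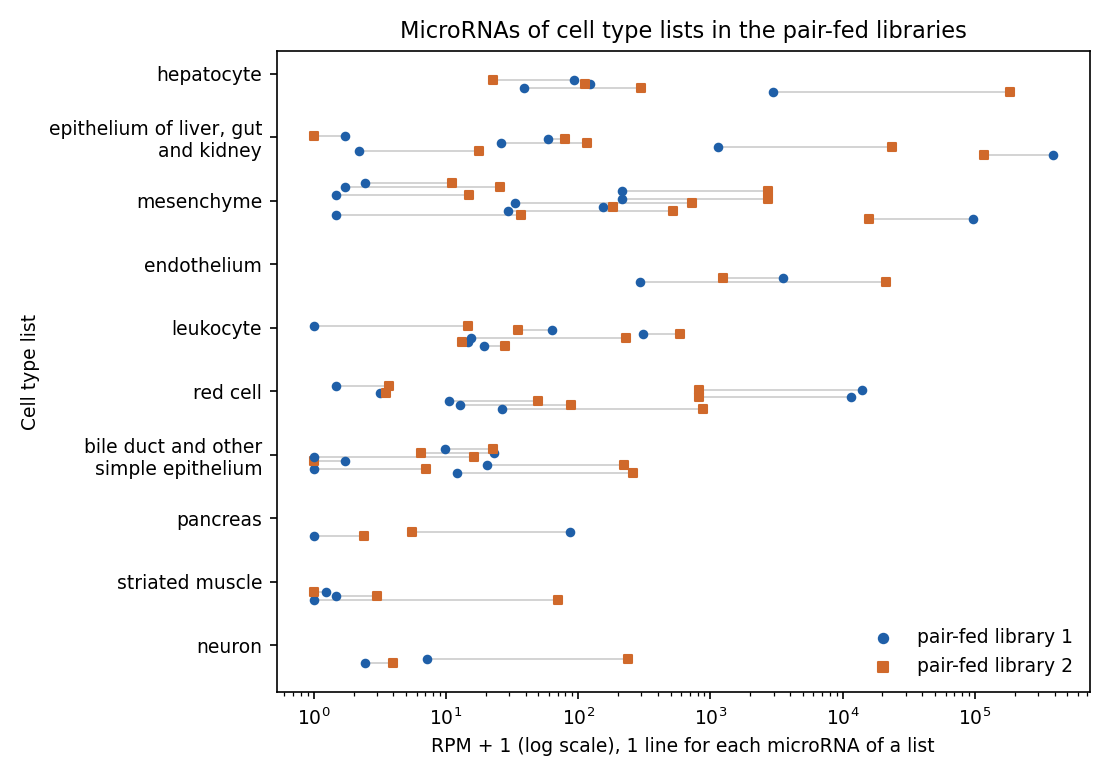
Level of each microRNA of 10 cell type lists in library 1 (circles) and library 2 (squares), in RPM plus 1 on a log scale with values not listed drawn as 0, 1 line for each microRNA above 0 in either library. The lists hold members that differ in opposite directions, such as miR-192-5p (388161 and 117318 RPM) and miR-194-5p (1149 and 23768 RPM) of the epithelial list.

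Features of the mature sequences were set beside the ratios for the 186 compared microRNAs with a matched sequence, whose median log2 ratio was 1.65 and of which 55.9% were past 4-fold. Sequences of 21 or fewer bases had a median of 2.39 (n = 37), those of 22 bases 1.58 (n = 105) and those of 23 or more 0.94 (n = 44). By content of G plus C, the median was 2.22 under 40% (n = 41), 1.14 from 40% to 50% (n = 76) and 1.58 from 50% (n = 69). The quartiles of these classes overlapped. Spearman's rho of the ratio with length was -0.13 and with G plus C content -0.15 over these 186 microRNAs.

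By the first base of the strand, which sits in a pocket of Argonaute, the median ratio was 1.76 for U (n = 89), 1.36 for A (n = 46) and 1.21 for C (n = 43). All 8 microRNAs that begin with G were past 4-fold towards library 2, among them miR-101b-3p, with a median of 2.48, but after median-of-ratios scaling only miR-455-3p of the 8 was past 4-fold.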

How the data were processed

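Small RNA of mouse liver was sequenced by the authors, and reads were counted per mature microRNA. The authors deposited the first table as counts without normalization (4170601 reads in the pair-fed library) and the second as RPM, which are reads per 1000000 microRNA reads. Low values of the second table lie on steps of 0.0925 RPM (97.0% of 296 values under 60 RPM, to the 2 decimals printed), which, if a step is 1 read, gives a depth of about 10.8 in units of 1000000 reads. Values under 10 steps do not occur in it other than 0. The aligner, annotation and filters are not given in the sources used here. The submitters' processing notes name the build mm8, whereas coordinates and sequences here come from RefSeq on GRCm38.p6 and host genes from GENCODE vM21. The labels name a TruSeq RNA kit and the study's methods a gel-sized small RNA preparation. The second table also holds the authors' log2 fold change and P value of ethanol against control, which were not used, as were the 2 ethanol columns. No column of per-sample values was left without a sample (0 columns). A second copy of the pair-fed column in the second table was not used.

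Counts were scaled to RPM of their sum. The log2 ratio of library 2 over library 1 was computed with a pseudocount of 1 RPM, which understates changes of scarce microRNAs, for names listed in both tables with a mean of at least 10 RPM. A microRNA was counted as different at 4-fold or more (an absolute log2 ratio of at least 2). With 1 library per table there was no test and no p-value. Intervals of shares are 95% Wilson intervals, the interval of a ratio from 1 to 3 reads is an exact 95% Poisson interval, and both cover counting error only, since reads were not counted as molecules. The ratio step was tested on simulated data. The tools were pandas 2.3.3, numpy 2.4.6 and scipy 1.17.1 under Python 3.11.15, with matplotlib 3.10.9 for plots.

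The members and lists were chosen with earlier results of these data known. The microRNAs named were the 10 most abundant of each library, the 10 largest ratios in each direction (at least 100 RPM in 1 library and above 0 in both), the 5 most abundant of each library that were at 0 or not listed in the other, the members of the 12 leading seed families, the members of cell type lists at 10 RPM or more, and the 5 hairpins with the largest difference in arm share. Others are marked where they are named. Alternatives were another pseudocount, minimum, scaling, fold or treatment of unlisted names and zeros.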

Additional observations from a re-analysis of the deposited data

How the results depend on the processing

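The 101 microRNAs higher in library 2 and the 27 higher in library 1 became 51 and 56 with median-of-ratios scaling, and 51 and 17, of 116, with a minimum of 100 RPM. With a pseudocount of 10 RPM they were 78 and 22, and without a minimum 145 and 38. Totals without miR-192-5p, miR-122-5p and miR-148a-3p gave 105 and 26, and left 78.1% of library 1 and 62.3% of library 2 in the 10 leading names. Over names listed in both tables only, these held 75.6% of library 2, the let-7, miR-192 and miR-148 seeds 14.1%, 11.8% and 19.1%. With a minimum of 1 RPM and of 100 RPM, rho between the libraries was 0.65 and 0.47 and r 0.76 and 0.50. The rho of the ratio was -0.17 with G plus C content and -0.11 with length for 1 microRNA per seed, and -0.24 and -0.20 at 100 RPM. The same arm led for 45 of 50 hairpins at 100 RPM.

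Without its most abundant member, the log2 ratio of a list's sums turned from -2.10 to 3.43 for mesenchyme, from 2.53 to -1.52 for endothelium and from -3.64 to 1.26 for pancreas. It moved from 5.83 to 0.78 for hepatocyte, from -1.46 to 4.28 for the epithelium of liver, gut and kidney, from 1.10 to 1.52 for leukocyte, from -3.27 to -2.66 for red cell, from 3.06 to 2.37 for bile duct, from 5.41 to 0.82 for muscle and from 4.79 to 0.70 for neuron. For 40 named microRNAs the alternatives gave 240 log2 ratios, of which 135 lay inside the 95% Poisson interval of the reads of library 1 and 105 outside it.

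No paired analysis was possible because each table holds 1 pair-fed library. For the same reason no library was left out. Without replicates, the depth of library 1 limits values under 0.719 RPM and the listing of library 2 values under 0.92 RPM. The cause of these differences was not tested.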

Other observations

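MicroRNAs of neighbouring genes are often cut from 1 transcript, and their ratios were set side by side for the 31 groups of genes within 50000 bases of each other on GRCm38.p6 that held at least 2 compared genes (97 members, some with more than 1 gene). The median range of the log2 ratio within a group was 4.003, and 21 groups spanned 4-fold or more. In 4 groups, named after their values were seen, every member was at least 4-fold higher in library 2, and in 0 groups was every member as much higher in library 1. They were miR-199a-5p, miR-199a-3p and miR-214-3p (ratios from 3.67 to 4.45), miR-451a with both strands of miR-144 (2.22 to 5.04), miR-29a-3p and miR-29b-3p (3.26 and 3.59), and miR-23a-3p, miR-27a-3p, miR-24-2-5p and miR-24-3p (2.35 to 3.83). In the first of these, 2 members have more than 1 gene. miR-29b-3p and miR-24-3p also come from other groups, whose miR-29c-3p and miR-27b-3p had ratios of 0.71 and 0.08. The ratios of such members cannot be credited to 1 group. After median-of-ratios scaling, 0 groups had every member at least 4-fold higher in library 2 and 3 had every member as much higher in library 1, the pairs of miR-181a and miR-181b genes on chromosomes 1 and 2 and the pair of let-7e and miR-125a on chromosome 17 (-1.87 for let-7e-5p and -3.35 for miR-125a-5p before that scaling).

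The cluster of miR-192 and miR-194-2 on chromosome 19 spanned -1.73 for miR-192-5p, 2.18 for miR-194-2-3p and 4.37 for miR-194-5p, the last of which also comes from chromosome 1. The cluster of miR-182, miR-183 and miR-96 on chromosome 6 ran from -6.03 for miR-182-5p to 0.42 for miR-96-5p. The miR-17 to miR-92 cluster on chromosome 14, known for driving proliferation, ran from 0.75 for miR-19a-3p to 5.56 for miR-20a-5p. Among microRNAs of the imprinted Dlk1-Dio3 region on chromosome 12, miR-300-3p, miR-379-5p, miR-381-3p, miR-411-5p and miR-541-5p summed to 141 RPM in library 1 and 274 RPM in library 2. For these names together, that difference is smaller than the 3.29-fold of the median microRNA. miR-411-5p and miR-541-5p each had a log2 ratio of -0.34, and the other 3 were at least 4-fold higher in library 2, up to 4.85 for miR-379-5p. A further group on chromosome 12, miR-127-3p, miR-136-3p and miR-434-5p, summed to 96.4 RPM in library 1 and 325 RPM in library 2. Its log2 ratios ran from 1.62 to 2.68.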
